A study of Mus musculus with 40 samples.

Results

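The 10 genes described here are Prtn3, Elane, Mpo, Ctsg, Ms4a3, Cebpa, Cebpe, Csf1r, Irf8 and Csf3r, which mark granulocyte-monocyte progenitors and the primary granules that such cells begin to make. They were taken by symbol from 30365 gene symbols in 6 expression tables of mouse bone marrow, made from haematopoietic stem cells (HSCs) or multipotent progenitors (MPPs), and all 10 had a row in each table. Hira KO libraries were set against WT libraries within each table, and Prtn3 was set against its chromosome neighbour Elane. These KO and WT values were in view when the genes were chosen, so their differences are given as a description with no p, and the number past the threshold is printed only beside its share among all genes.

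RNA was sequenced from 40 libraries of bone marrow cells of C57BL/6 mice, in 12 groups. HIRA is a chaperone that deposits the histone variant H3.3 outside of DNA replication. Deletion of Hira was induced by 2 doses of 20 µg poly(I:C), an interferon inducer, and the treatment text gives no separate treatment for WT mice. The labels name the deleting Cre only for the second cohort (Mx1-Cre, whose promoter answers to interferon and is not limited to blood cells), and they give the controls as WT without saying whether these carried it. In the first cohort, each library held 2500 HSCs or MPPs taken 1 week after dosing began, with 4 KO and 4 WT libraries of each cell type. In the second cohort, Mx1-Cre; Hira fl/fl; Rosa26-M2rtTA; TetOP-H2B-GFP mice had doxycycline at 2 mg/ml in their water for 6 weeks, which loads chromatin with H2B-GFP. Cells were then sorted by GFP after a chase of 17 days, with 15 days between the last poly(I:C) and the sort. GFP-high cells have kept the label and GFP-low cells have diluted it by division. GFP-high and GFP-low HSCs and MPPs each had 3 KO and 3 WT libraries.

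Primary granules are filled at the promyelocyte stage. Prtn3 (proteinase 3), Elane (neutrophil elastase) and Ctsg (cathepsin G) encode the serine proteases of these granules, and Mpo encodes myeloperoxidase, which makes hypochlorous acid. Ms4a3 encodes a membrane protein that is used as a marker of granulocyte-monocyte progenitors. Cebpa is needed to form those progenitors, Cebpe drives the later granulocyte stages, and Irf8 steers cells to monocytes and dendritic cells. Csf3r and Csf1r are the receptors for the granulocyte and the macrophage colony-stimulating factors. Low levels of such transcripts in HSCs and MPPs are known as myeloid priming.

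Prtn3 and Elane lie side by side on mouse chromosome 10, on the same strand, with 3137 bases between the end of Prtn3 (79879667 to 79883174, GRCm38) and the start of Elane (79886312 to 79888216). Mpo is on chromosome 11 (87793784 to 87804412) and Ctsg on chromosome 14 (56099885 to 56102574, minus strand). The bases before the RefSeq start of these 4 genes are shown because they are the most abundant members and because the neighbouring pair differed in behaviour. Capitals mark GAGGAA, the core that the ETS factor PU.1 binds, and AACNG, the core that MYB binds, on either strand. Both factors are known activators of early myeloid genes. The 250 bases before each start were searched, and bases that GENCODE M21 places in an exon of the gene are not shown (53 for Prtn3, 65 for Elane, 203 for Mpo, 0 for Ctsg).
Prtn3 (chr10:79879417-79879613, plus strand): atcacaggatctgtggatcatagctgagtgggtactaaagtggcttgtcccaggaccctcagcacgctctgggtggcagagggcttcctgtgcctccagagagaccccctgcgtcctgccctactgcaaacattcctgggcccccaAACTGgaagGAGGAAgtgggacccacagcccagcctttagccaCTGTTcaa
Elane (chr10:79886062-79886246, plus strand): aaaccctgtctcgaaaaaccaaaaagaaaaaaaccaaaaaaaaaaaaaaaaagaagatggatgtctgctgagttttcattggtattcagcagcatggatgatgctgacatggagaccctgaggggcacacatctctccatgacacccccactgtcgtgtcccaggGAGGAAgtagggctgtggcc
Mpo (chr11:87793534-87793580, plus strand): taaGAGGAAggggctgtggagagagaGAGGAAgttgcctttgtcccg
Ctsg (chr14:56102575-56102824, minus strand): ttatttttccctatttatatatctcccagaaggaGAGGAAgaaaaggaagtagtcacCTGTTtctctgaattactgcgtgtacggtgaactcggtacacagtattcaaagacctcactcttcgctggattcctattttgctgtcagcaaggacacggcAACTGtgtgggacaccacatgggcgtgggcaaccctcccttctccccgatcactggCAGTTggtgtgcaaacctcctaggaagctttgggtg
GAGGAA stood 95 bases before the start of Prtn3 and 85 bases before that of Elane. In Mpo it stood 247 and 224 bases before the start, and in Ctsg 216 bases. None of the marked stretches overlap. Of the 8 members with a RefSeq window, 5 held GAGGAA in the 250 bases, against 23.3% of all 32851 windows. AACNG was in 7 of the 8, against 74.2% of all windows. A C/EBP half-site pair (TTNCNNAA) was in 1 of the 8, against 36.8%, and not in Prtn3, Elane, Mpo or Ctsg. The RUNX core TGTGGT was in 1 of the 8, against 14.0%, and the TATA box core TATAA in 5, against 22.8%. The pair of neighbours shares the PU.1 core at a like distance, which is a match of letters and not a measured binding site. Csf3r, on chromosome 4, held it 86 bases before its start, so that distance is not particular to the pair.

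Depth per library was 18.3 to 32.5 M (mega) reads in the first cohort and 5.82 to 9.57 M reads in the second, recovered from the steps of the FPKM values. FPKM counts fragments per kilobase of gene and per M reads, so levels of different genes can be set side by side. The authors' scaling was done within each table, and levels were therefore not compared between tables. Hira FPKM averaged 1.11 ± 0.275 in KO HSCs and 1.25 ± 0.362 in WT HSCs (SD, n = 4 each), and limma called it in none of the 6 comparisons. As a ratio of means, KO to WT ran from 0.765 in GFP-high HSCs to 1.14 in GFP-high MPPs. Exons outside the deletion could add to these values, which was not tested, so the labels stay unchecked by them. Of 12 HSC genes, all 12 were tested in HSCs and 9 in MPPs, so passing the filter does not check the labelled cell type. Pdzk1ip1, a known HSC marker, averaged 84.6 ± 8.18 FPKM in KO HSCs and 65.5 ± 7.61 FPKM in WT HSCs (SD, n = 4 each). Of these 12 genes, 5 had positive and 7 negative log2 differences in HSCs, with a median of -0.02. Transcripts of mature neutrophils were present in every library, and KO replicate 3 of the GFP-low HSCs and of the GFP-high MPPs stood apart in them, as given below. In such bulk samples, fewer cells of a type and less RNA per cell cannot be told apart.

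Prtn3 was the most even of the granule genes and was higher in KO than in WT libraries of 4 populations with no overlap of the groups. In GFP-high HSCs it measured 285, 309 and 288 FPKM in KO libraries, against 165, 185 and 171 FPKM in WT libraries. In GFP-low HSCs it measured 211, 277 and 274 FPKM in KO libraries, against 131, 161 and 119 FPKM in WT libraries. All KO libraries of both HSC populations were above all WT libraries, as were those of 8.61% of all tested genes in GFP-high HSCs and 7.67% in GFP-low HSCs. The log2 difference, KO minus WT on log2(FPKM + 1), was 0.76 in GFP-high HSCs (95% interval 0.56 to 0.95) and 0.88 in GFP-low HSCs (0.53 to 1.24). As a ratio of means, Prtn3 was 1.69 times as high in KO as in WT GFP-high HSCs and 1.85 times as high in GFP-low HSCs.

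Among the MPPs of the GFP cohort, the same order held for GFP-high but not for GFP-low cells. GFP-high MPPs had 309, 323 and 259 FPKM of Prtn3 in KO libraries, against 171, 187 and 212 FPKM in WT libraries, a log2 difference of 0.64 (0.33 to 0.95). GFP-low MPPs had 320, 203 and 220 FPKM in KO libraries, against 184, 219 and 194 FPKM in WT libraries, a log2 difference of 0.29 (-0.09 to 0.68). The groups of the GFP-high MPPs did not overlap, as for 6.74% of tested genes with KO above WT there, against 9.73% in GFP-low MPPs. KO replicate 1 was the highest of the GFP-low MPPs, KO replicate 2 and WT replicate 2 crossed (203 against 219 FPKM), and without KO replicate 1 the difference was 0.09.

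In the first cohort, 1 week after the first poly(I:C) dose, Prtn3 differed little. First-cohort HSCs had 99.96, 98.1, 105 and 98.2 FPKM in KO libraries, against 97.1, 73.1, 88.3 and 87.3 FPKM in WT libraries. The groups did not overlap, with KO replicate 2 at 98.1 FPKM next to WT replicate 1 at 97.1 FPKM, and the log2 difference was 0.22 (0.01 to 0.43). It was 0.14 (-0.04 to 0.32) without WT replicate 2 and 0.15 (-0.05 to 0.36) with libraries rescaled to 1 total. KO was above WT without overlap for 2.81% of tested genes in HSCs and 5.08% in MPPs. First-cohort MPPs had 272, 294, 220 and 182 FPKM in KO libraries, against 190, 196, 284 and 256 FPKM in WT libraries, with interleaved groups and a log2 difference of 0.06 (-0.35 to 0.46), which was -0.02 after rescaling and between -0.04 and 0.19 with 1 library left out. The order of the 6 differences was thus GFP-low HSC, GFP-high HSC, GFP-high MPP, GFP-low MPP, HSC and MPP, and whether they differ from each other was not tested.

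Elane, in contrast, spread widely between replicates of a group, with a within-group SD of 0.64 to 2.19 on the log2 scale over the 6 tables, against 0.07 to 0.30 for Prtn3. In first-cohort HSCs it measured 35.6, 28.6, 62.1 and 38.9 FPKM in KO libraries, against 5.05, 25.4, 111 and 0.262 FPKM in WT libraries. WT replicate 4 rested on 7 reads, although its Prtn3 stood at 87.3 FPKM. WT libraries were both the highest and the lowest, and the log2 difference was 1.73 (-0.56 to 4.02), or 0.64 without WT replicate 4. In first-cohort MPPs it measured 338, 395, 290 and 116 FPKM in KO libraries, against 87.2, 301, 821 and 367 FPKM in WT libraries, a log2 difference of -0.20 (-1.49 to 1.08), which was 0.28 without WT replicate 3 and 0.18 without KO replicate 4.

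In the GFP cohort, Elane was lower in KO than in WT GFP-high HSCs with no overlap, the opposite order to Prtn3 in the same 6 libraries. It measured 95.5, 51.2 and 30.1 FPKM in KO libraries, against 208, 119 and 148 FPKM in WT libraries, a log2 difference of -1.53 (-2.33 to -0.72). GFP-low HSCs had 13.8, 78.4 and 295 FPKM in KO libraries, against 174, 104 and 120 FPKM in WT libraries. There the KO libraries lay on both sides of the WT range, and the log2 difference of -0.89 (-2.83 to 1.05) was -1.92 without KO replicate 3 and 0.24 without KO replicate 1. GFP-high MPPs had 110, 143 and 299 FPKM in KO libraries, against 146, 56.4 and 48.7 FPKM in WT libraries, a log2 difference of 1.17 (0.15 to 2.20), or 0.76 without KO replicate 3. GFP-low MPPs had 229, 18.8 and 2.74 FPKM in KO libraries, against 150, 146 and 55.1 FPKM in WT libraries, a log2 difference of -2.07 (-4.83 to 0.70). The KO libraries of the GFP-low MPPs ran from 32 to 3040 reads of Elane, with KO replicate 1 above and both others below all WT libraries.

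**Figure D1:**
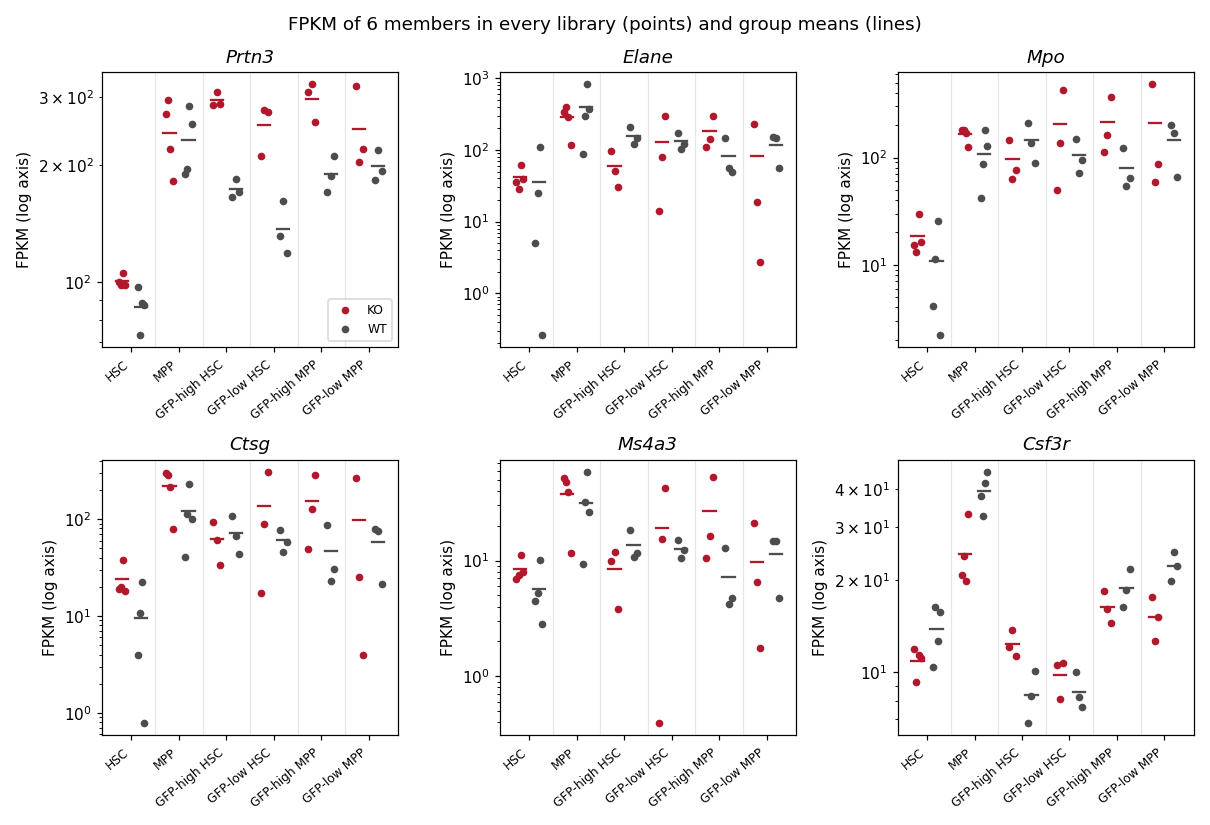
FPKM (log axis) of Prtn3, Elane, Mpo, Ctsg, Ms4a3 and Csf3r in every library, KO in red left of WT in grey, with lines at the group means (n = 4 in HSC and MPP, n = 3 in the GFP populations). Prtn3 points of one group lie close together and KO stands above WT in 4 populations, while Elane spreads from 0.262 to 821 FPKM.

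The ratio of Prtn3 to Elane within one library shows how loosely the neighbours were tied. Over the 40 libraries it ran from 0.346 in WT replicate 3 of the MPPs to 333 in WT replicate 4 of the HSCs, and Prtn3 was the higher of the pair in 28 libraries. In GFP-high HSCs, Prtn3 was 2.99, 6.02 and 9.54 times as high as Elane in KO libraries, against 0.796, 1.55 and 1.15 times in WT libraries. All 3 KO libraries were above all 3 WT libraries there, and the log2 ratio averaged 2.45 ± 0.828 in KO and 0.17 ± 0.478 in WT libraries (SD, n = 3 each), a difference of 2.28. The groups overlapped in the other 5 populations. The differences in log2 ratio, KO minus WT, were -1.51 in HSCs, 0.26 in MPPs, 1.77 in GFP-low HSCs, and -0.53 and 2.36 among the GFP-high and GFP-low MPPs. Against these stood pooled SDs of 2.02, 0.859, 1.44, 0.943 and 1.99 in the same order.

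The spread between replicates of a group is a measure apart from the KO and WT difference, and the members differed widely in it. The SD of log2(FPKM + 1) within groups was ranked among all genes tested in each table. Elane stood at percentiles 98.4 to 99.96 over the 6 tables, Ctsg at 98.6 to 99.9, Mpo at 96.8 to 99.7 and Ms4a3 at 95.9 to 99.9. Prtn3, made for the same granules, stood at 4.75 to 74.8, and Csf3r at 39.0 to 65.3. Among abundant genes alone (mean log2 of 5 or more), Prtn3 stood at percentiles 9.69 to 88.6 and Elane at 98.7 to 99.9. In GFP-high HSCs the SD was 0.07 for Prtn3 and 0.64 for Elane, against a median of 0.17 over the 10850 genes tested. Elane rested on 306 to 2569 reads in those libraries and Prtn3 on 3249 to 5789.

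**Figure D2:**
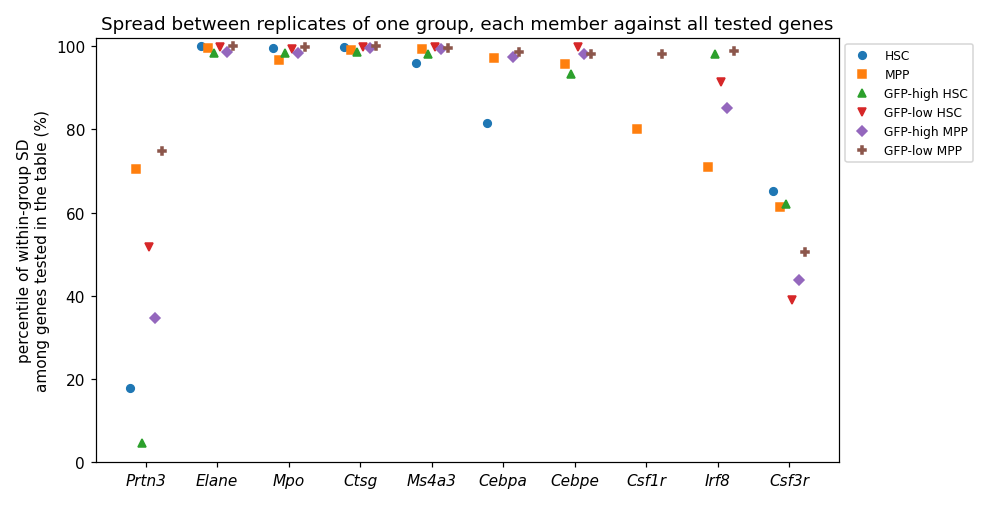
Percentile of each member's within-group SD among all genes tested in the same table (vertical axis, %), one symbol per population, for the tables where the member was tested. Elane, Mpo, Ctsg and Ms4a3 sit above 95 in every table, whereas Prtn3 ranges from 4.75 to 74.8 and Csf3r stays between 39.0 and 65.3.

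Mpo and Ctsg, the other abundant granule genes, followed Elane from library to library. Mpo in first-cohort HSCs measured 15.3, 13.1, 29.5 and 16.4 FPKM in KO libraries, against 4.09, 11.2, 25.6 and 2.22 FPKM in WT libraries. Ctsg measured 19.1, 20.1, 38.2 and 18.1 FPKM in KO libraries, against 3.96, 10.8, 22.3 and 0.791 FPKM in WT libraries. Both were lowest in WT replicate 4, the library with the lowest Elane, and the log2 differences were 1.13 (-0.05 to 2.31) for Mpo and 1.75 (0.39 to 3.12) for Ctsg. In first-cohort MPPs, Mpo ranged from 126 to 182 FPKM in KO and from 42.0 to 179 FPKM in WT libraries, and Ctsg from 79.5 to 302 FPKM in KO and from 40.3 to 231 FPKM in WT libraries. Their log2 differences were 0.76 (-0.03 to 1.54) and 0.95 (-0.18 to 2.07).

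Both genes mostly tracked Elane through the GFP cohort as well. In GFP-high HSCs, where Elane was lower in KO libraries, Mpo measured 147, 63.6 and 76.7 FPKM in KO libraries, against 211, 136 and 88.8 FPKM in WT libraries, a log2 difference of -0.60 (-1.39 to 0.18). Ctsg measured 93.0, 60.7 and 33.5 FPKM in KO libraries, against 107, 66.2 and 43.7 FPKM in WT libraries, a log2 difference of -0.23 (-1.08 to 0.62), which was 0.15 without KO replicate 3 and 0.09 without WT replicate 1. For both genes the KO and WT libraries overlapped. In GFP-low HSCs, Mpo measured 49.7, 138 and 427 FPKM in KO libraries, against 147, 71.1 and 95.8 FPKM in WT libraries. Ctsg there measured 17.4, 88.5 and 305 FPKM in KO libraries, against 78.0, 45.3 and 57.7 FPKM in WT libraries. KO replicate 3 was the highest and KO replicate 1 the lowest for both, as for Elane. The log2 differences were 0.51 for Mpo and 0.41 for Ctsg, and -0.27 and -0.56 without KO replicate 3.

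In GFP-high MPPs, Mpo measured 112, 164 and 363 FPKM in KO libraries, against 122, 54.2 and 64.1 FPKM in WT libraries, a log2 difference of 1.31 (0.35 to 2.28). Ctsg measured 49.3, 128 and 283 FPKM in KO libraries, against 86.3, 22.8 and 30.7 FPKM in WT libraries, a log2 difference of 1.60 (0.17 to 3.03). KO replicate 3 was the highest for both, WT replicate 1 lay inside the KO range, and without KO replicate 3 the differences were 0.84 and 1.00. In GFP-low MPPs, Mpo measured 481, 58.8 and 86.9 FPKM in KO libraries, against 202, 169 and 65.9 FPKM in WT libraries. Ctsg there measured 267, 25.4 and 3.99 FPKM in KO libraries, against 79.1, 75.6 and 21.2 FPKM in WT libraries. For each gene, KO replicate 1 was above all WT libraries and another KO library was below all of them, and the log2 differences were 0.04 (-1.59 to 1.68) for Mpo and -0.65 (-3.39 to 2.09) for Ctsg. Mpo was at -0.87 without KO replicate 1 and -0.45 without WT replicate 3, and Ctsg at 0.71 without KO replicate 3.

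Ms4a3, the progenitor marker, had a lower level and the same library pattern. It ranged from 6.93 to 11.1 FPKM in KO and from 2.82 to 10.2 FPKM in WT libraries of the first-cohort HSCs, and from 11.6 to 51.9 FPKM in KO and from 9.41 to 58.2 FPKM in WT libraries of the MPPs. In GFP-low HSCs it measured 0.397, 15.4 and 42.1 FPKM in KO libraries, against 15.0, 10.4 and 12.3 FPKM in WT libraries. KO replicate 1 of that group was low for Ms4a3 as it was for Elane, Mpo and Ctsg. The log2 differences of Ms4a3 over the 6 populations ran from -0.70 in GFP-high HSCs to 1.57 in GFP-high MPPs, and no population had separate groups.

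Within the 12 groups, the library with the highest Elane was also the highest for Mpo in 12, for Ctsg in 11 and for Ms4a3 in 9. For Prtn3 it was so in 4 groups and for Csf3r in 3. The library with the lowest Elane was the lowest for Mpo in 8 groups, for Ctsg in 9, for Ms4a3 in 10, for Prtn3 in 4 and for Csf3r in 2. Elane, Mpo, Ctsg and Ms4a3 thus mostly went up and down together among replicates of a group, and Prtn3 shared their extremes less often by these counts, a difference that was not tested. First-cohort MPPs were an exception, in which Prtn3 was highest and lowest in the same libraries as Elane, in KO and in WT.

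Transcripts of mature neutrophils differed between the same libraries. The list holds 16 genes, led by S100a8 and S100a9, and all 16 had a row in each table. Their summed FPKM was 2142, 4975 and 30191 in KO GFP-low HSCs, against 3775, 3996 and 4138 in WT GFP-low HSCs. It was 4034, 6563 and 25065 in KO GFP-high MPPs, against 4348, 4964 and 5918 in WT GFP-high MPPs. KO replicate 3 was thus highest in the sum and in Elane, Mpo and Ctsg in both populations. In the other populations the sum ranged from 354 to 694 in KO and from 179 to 1813 in WT HSCs, and from 483 to 4488 in KO and from 1311 to 3962 in WT MPPs. It ranged from 4496 to 5655 in KO and from 5637 to 7601 in WT GFP-high HSCs, with KO replicate 2 just above WT replicate 1, and from 3869 to 10255 in KO and from 4756 to 9068 in WT GFP-low MPPs. The library with the highest sum was also the highest for Elane in 6 of 12 groups and for Prtn3 in 6 of 12. Prtn3 had log2 differences of 0.83 in GFP-low HSCs and 0.74 in GFP-high MPPs without KO replicate 3, close to the values with it. The part of neutrophil transcripts in the Elane, Mpo and Ctsg differences was not tested.

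**Figure D3:**
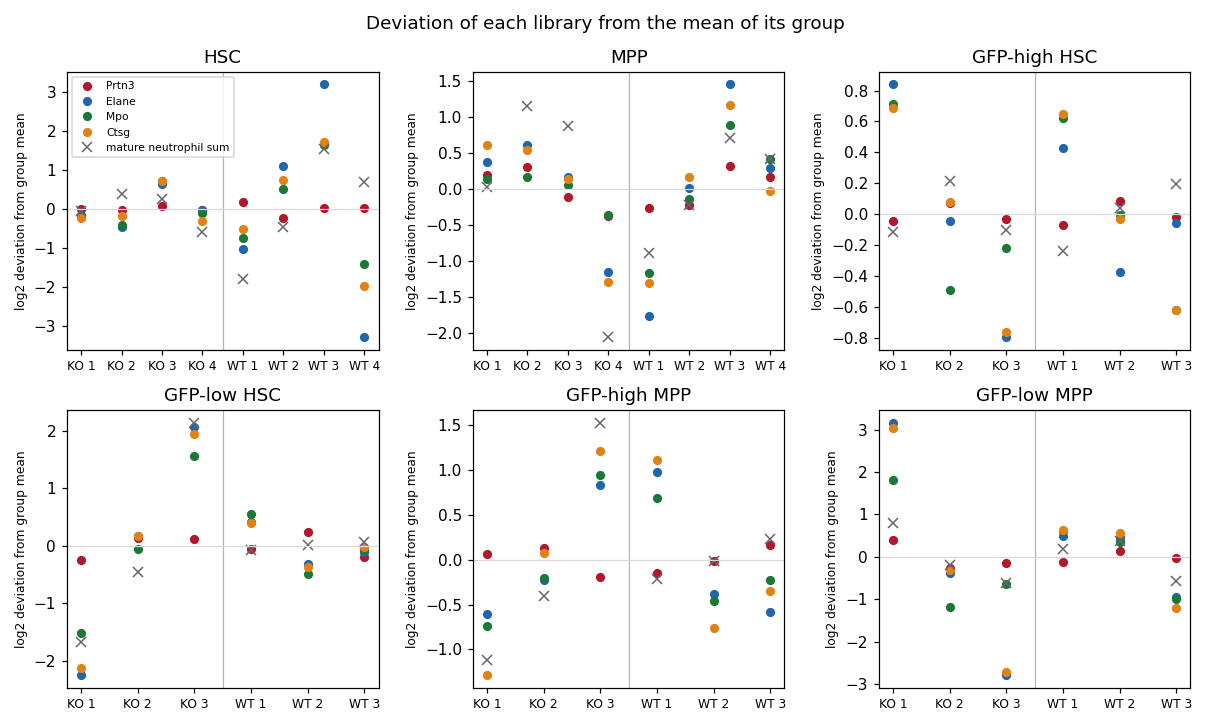
Log2(FPKM + 1) of Prtn3, Elane, Mpo and Ctsg, and of the summed mature neutrophil genes (crosses), in each library as a deviation from the mean of its own group (vertical axis), KO left of WT. Elane, Mpo and Ctsg deviate together, by more than 3 log2 units for Elane, while Prtn3 stays near 0, and the neutrophil sum is high in KO replicate 3 of the GFP-low HSCs and GFP-high MPPs.

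The transcription factor genes Cebpa, Cebpe and Irf8 averaged below Prtn3, Elane, Mpo and Ctsg in all 12 groups. Cebpa averaged 1.68 ± 0.370 FPKM in KO HSCs and 1.36 ± 0.646 FPKM in WT HSCs (SD, n = 4 each), overlapping. In the separately scaled MPP table it averaged 11.3 ± 6.88 FPKM in KO MPPs and 9.63 ± 2.14 FPKM in WT MPPs (SD, n = 4 each). In GFP-low MPPs it measured 4.12, 0.367 and 1.67 FPKM in KO libraries, against 5.60, 2.65 and 3.01 FPKM in WT libraries, a log2 difference of -0.79 (-1.78 to 0.20). KO replicate 1 lay inside the WT range and the other two below it. In the GFP-high and GFP-low HSCs Cebpa did not reach 1 FPKM in 3 libraries and was not tested.

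Cebpe, the factor of later granulocyte stages, had log2 differences from 0.15 in MPPs to 1.23 in GFP-high MPPs (0.30 to 2.17) over the 5 populations where it was tested. That of GFP-low HSCs (0.33) was -0.28 with a pseudocount of 0.1 and -0.81 without KO replicate 3. Leaving out 1 library also turned the sign in MPPs (-0.04 without KO replicate 2, -0.06 without WT replicate 1), in GFP-high HSCs (-0.04 without KO replicate 2) and in GFP-low MPPs (-0.10 without KO replicate 1). GFP-high MPPs had 3.50, 4.8 and 15.2 FPKM in KO libraries, against 2.73, 1.71 and 2.23 FPKM in WT libraries, with no overlap. The highest of these, KO replicate 3, was the library with the high neutrophil sum, and the log2 difference without it was 0.68. In GFP-low HSCs the same replicate number had 21.1 FPKM in the KO group and KO replicate 1 had 0.0669 FPKM, which was 1 read, against 3.52, 2.40 and 2.02 FPKM in WT libraries. Irf8 was tested in 5 populations, and its log2 difference ran from -0.20 in GFP-high HSCs (-0.98 to 0.59) to 0.57 in GFP-low HSCs (-0.09 to 1.23), with the GFP-high HSC value at 0.02 without KO replicate 3 and 0.08 without WT replicate 1. GFP-low HSCs had 1.88, 3.52 and 3.99 FPKM of Irf8 in KO libraries, against 2.74, 1.74 and 0.944 FPKM in WT libraries, so 1 KO library lay below the highest WT library.

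The receptors differed in both level and direction. Csf3r in GFP-high HSCs measured 12.1, 13.8 and 11.3 FPKM in KO libraries, against 6.81, 8.30 and 10.1 FPKM in WT libraries, a log2 difference of 0.52 (0.18 to 0.86). In GFP-low MPPs it measured 17.6, 12.7 and 15.1 FPKM in KO libraries, against 20.0, 24.8 and 22.3 FPKM in WT libraries, a log2 difference of -0.54 (-0.87 to -0.21). KO libraries were all higher in the GFP-high HSCs and all lower in the GFP-low MPPs. First-cohort MPPs had 20.8, 24, 19.9 and 33.0 FPKM in KO libraries, against 37.9, 32.6, 41.8 and 45.4 FPKM in WT libraries, a log2 difference of -0.69 (-1.05 to -0.32). There KO replicate 4 alone reached into the WT range. The remaining log2 differences of Csf3r were -0.20 in GFP-high MPPs, 0.16 in GFP-low HSCs and -0.30 in first-cohort HSCs, with overlapping groups.

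Csf1r was the lowest member in 11 of the 12 groups. It averaged 1.44 ± 0.643 FPKM in KO MPPs and 1.15 ± 0.437 FPKM in WT MPPs (SD, n = 4 each), a log2 difference of 0.16 (-0.34 to 0.67). In GFP-high MPPs, where it was below the filter and not tested, it measured 0.627, 0.682 and 0.559 FPKM in KO libraries, against 0.402, 0.411 and 0.352 FPKM in WT libraries, with no overlap on 25 to 43 reads a library. In GFP-low MPPs it measured 1.98, 0.204 and 0.0146 FPKM in KO libraries, against 1.71, 1.15 and 0.338 FPKM in WT libraries, where KO replicate 3 rested on 1 read. That library was also the lowest for Elane, Ctsg and Ms4a3.

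**Figure D4:**
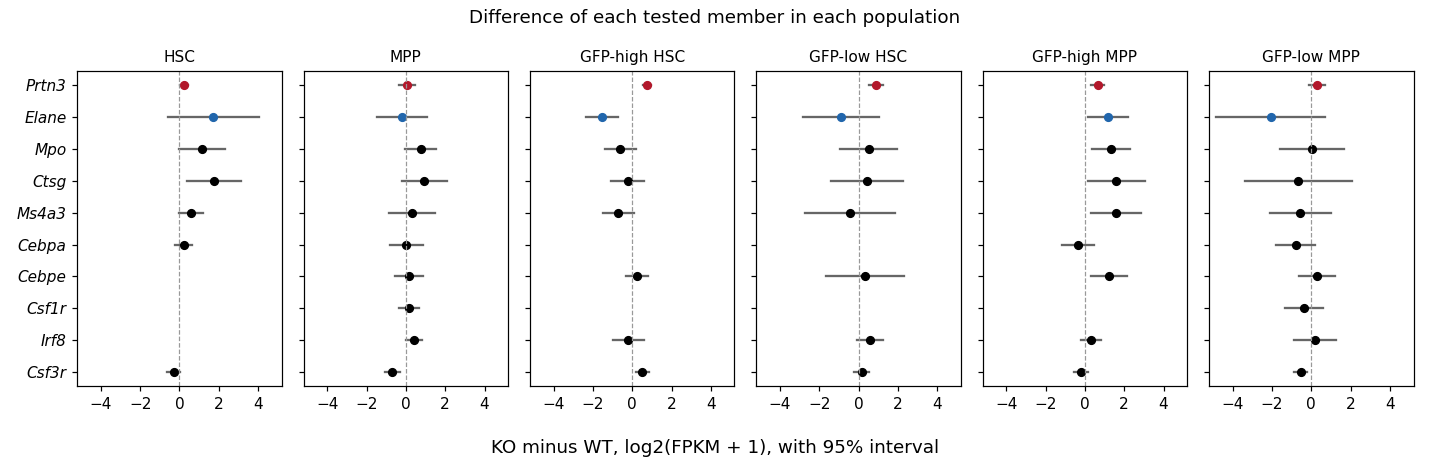
Log2 difference, KO minus WT on log2(FPKM + 1), of each member in each population where it was tested (points), with its 95% interval from limma (bars). Prtn3 (red) has short intervals that lie above 0 in both GFP HSC populations, in GFP-high MPPs and, barely, in first-cohort HSCs. Elane (blue) has long intervals, which lie below 0 in GFP-high HSCs, above 0 in GFP-high MPPs and span 0 elsewhere.

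A filter of 1 FPKM in at least 4 first-cohort or 3 GFP-cohort libraries left 7, 10, 8, 8, 9 and 10 members tested in HSCs, MPPs, GFP-high and GFP-low HSCs, and GFP-high and GFP-low MPPs. At an adjusted p under 0.05 in limma, 1 member was called in GFP-high HSCs, which was Prtn3, and 0 in the other 5 populations. That call was lost when any 1 of the 6 libraries was left out, with log2 differences of 0.72 to 0.80. The share of all tested genes called was 0.124% in HSCs, 0.108% in MPPs, 0.0276% in GFP-high HSCs, 0.32% in GFP-low MPPs, and 0% in both remaining populations. Without adjustment, 917 genes of the GFP-low HSCs and 765 of the GFP-high MPPs had p under 0.05, and limma voom also called 0 in both. KO libraries were all above WT libraries for 1 tested member in HSCs (Prtn3), 2 in GFP-high HSCs (Prtn3 and Csf3r), 1 in GFP-low HSCs (Prtn3) and 2 in GFP-high MPPs (Prtn3 and Cebpe), and all below for 1 in GFP-high HSCs (Elane) and 1 in GFP-low MPPs (Csf3r). KO libraries were all below WT libraries for 3.39% of all tested genes in HSCs, 4.84% in MPPs, 7.47% (GFP-high) and 6.42% (GFP-low) in GFP-cohort HSCs, and 6.59% (GFP-high) and 9.33% (GFP-low) in GFP-cohort MPPs. Since the genes were chosen on this contrast, nothing is read from these counts. The median log2 difference of the tested members was 0.58 in HSCs, 0.16 in MPPs, -0.21 and 0.37 in GFP-high and GFP-low HSCs, and 1.17 and -0.45 in GFP-high and GFP-low MPPs, beside medians between -0.0042 and 0.0043 over all tested genes.

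By level, Prtn3, Elane, Mpo and Ctsg were the top 4 members in 11 of 12 groups. Prtn3 was first in 10 groups and Elane in 2, the KO and WT MPPs of the first cohort. In KO GFP-high HSCs Prtn3 averaged 294 ± 12.8 FPKM, above all values of the next gene, Mpo (95.8 ± 45.0 FPKM), while in WT GFP-high HSCs Prtn3 (174 ± 9.88 FPKM), Elane (158 ± 45.1 FPKM) and Mpo (145 ± 61.5 FPKM) overlapped (SD, n = 3 each). In WT HSCs of the first cohort Csf3r (13.8 ± 2.82 FPKM) ranked above Mpo and Ctsg, with overlapping values. The transcription factors and Csf1r stood below Ms4a3 in all 12 groups.

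Genes beside Prtn3 and Elane were described to see whether the difference extended along the chromosome. Of 11 tested neighbours, 0 were called in any of the 6 tables. Prss57, which encodes a further serine protease of primary granules (NSP4) and lies at 79781474 to 79794684 on chromosome 10, was the neighbour most like it in direction. It averaged 4.90 ± 0.738 FPKM in KO HSCs and 3.22 ± 0.391 FPKM in WT HSCs (SD, n = 4 each), 9.33 ± 1.65 in KO and 6.65 ± 0.495 in WT GFP-high HSCs, and 12.0 ± 1.47 in KO and 7.58 ± 1.81 in WT GFP-low HSCs (SD, n = 3 each). KO libraries were above WT libraries in these 3 populations, with log2 differences of 0.48, 0.42 and 0.62. It is also a member of the list of other granule genes given below.

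Plppr3, a membrane protein gene, shares exon bases with Prtn3 in GENCODE M21 on the opposite strand, and whether the libraries keep the strand is not given in the sources used here. Its log2 difference was -0.43 in HSCs and 0.63 in GFP-high HSCs, both with no overlap, so it went against Prtn3 in the first and with it in the second. Plppr3 averaged 26.6 ± 4.53 FPKM in KO and 16.8 ± 2.59 FPKM in WT GFP-high HSCs (SD, n = 3 each), far below Prtn3. The other 9 neighbours (Palm, Ptbp1, Med16, R3hdm4, Arid3a, Wdr18, Tmem259, Cnn2 and Abca7) had log2 differences between -0.61 and 0.47 over the 6 tables. In GFP-high HSCs, 3 of the 11 neighbours had all KO libraries above all WT libraries, against 8.61% of all tested genes. They were Prss57, Plppr3 and Arid3a, a transcription factor gene that averaged 2.48 ± 0.323 FPKM in KO and 1.67 ± 0.250 FPKM in WT libraries (SD, n = 3 each). KO was above WT without overlap for 1 of the 11 in HSCs (2.81% of all tested genes), 0 in MPPs (5.08%) and 1 in GFP-low HSCs (7.67%). It was so for 1 each in GFP-high MPPs (6.74%) and GFP-low MPPs (9.73%). KO was below WT without overlap for 1 in HSCs (3.39%) and 2 in MPPs (4.84%). Close similarity of the serine protease genes to each other could also misplace reads, which the values per gene do not show.

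**Figure D5:**
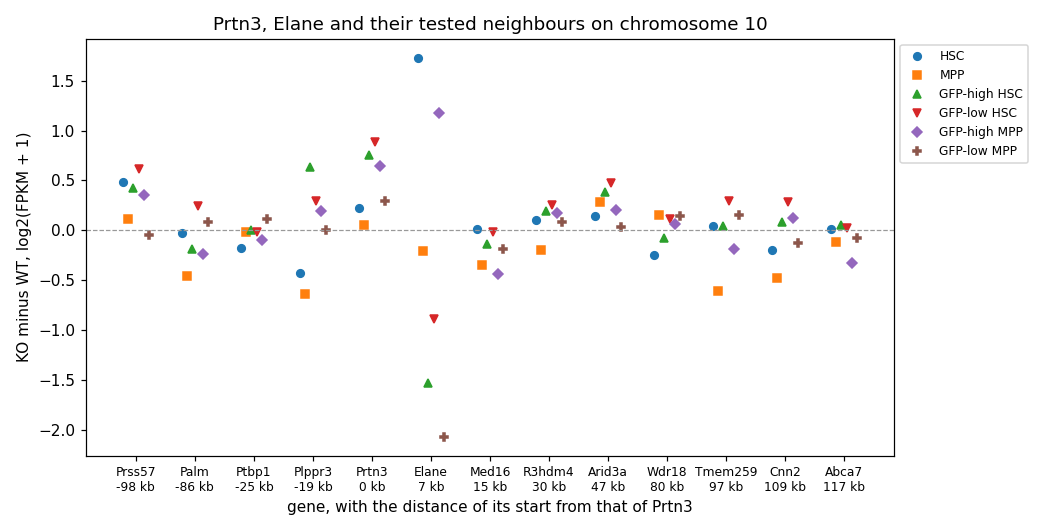
Log2 difference, KO minus WT on log2(FPKM + 1), of Prtn3, Elane and the 11 tested neighbours (horizontal axis, ordered by distance from the start of Prtn3 in kb), one symbol per population. Prtn3 is above 0 in all 6 tables (in MPPs not after rescaling of libraries to 1 total), Elane runs from -2.07 to 1.73, and Prss57 is above 0 in 5 of 6.

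The genes whose library deviations were most like those of Elane included Ctsg and Ms4a3 in both cohorts, along with genes outside the members. Over 16 libraries of the first cohort, with group means taken off, Elane had r = 0.97 with Mpo and 0.96 with Ctsg, ahead of Calml4, Ms4a3 and Ankrd9 among 13165 genes. Over the 24 libraries of the GFP cohort, the first 5 of 10165 genes were Ctsg (r = 0.98), Ly6c2, Ms4a3, Anxa3 and Itgal, with Mpo sixth. For Prtn3 they were Tcf3 (r = 0.89), Gpx1, Dpm2, Nfe2l1 and Gm5449 in the first cohort, and Sh3bgrl3 (r = 0.90), Bloc1s1, Batf2, Napsa and Dhrs1 in the GFP cohort. No gene was in both of these lists of 5 for Prtn3. Elane ranked 3029 in likeness to Prtn3 in the first cohort (r = 0.30) and 840 in the GFP cohort (r = 0.45). In the first cohort Cebpa (r = 0.72, rank 121) and Ms4a3 (r = 0.68, rank 212) were the members most like Prtn3. These r values describe libraries that share their tables, scaling and sorts.

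Other genes of the lineage were called in 0 cases. Of 20 further granule and myeloid progenitor genes, 18 or 19 were tested per table and 0 were called in any. Their median log2 difference was -0.01 in HSCs, 0.02 in MPPs, -0.03 in GFP-high HSCs, -0.08 in GFP-low MPPs, and 0.35 in both GFP-low HSCs and GFP-high MPPs. Srgn, the core protein of granule proteoglycan and among the most abundant of them, averaged 242 ± 15.7 FPKM in KO and 256 ± 18.8 FPKM in WT GFP-high HSCs (SD, n = 3 each). In GFP-high HSCs, 9 of the 18 tested genes of this list had positive and 9 negative log2 differences. Lyz2, the lysozyme of macrophages and granulocytes, averaged 975 ± 885 FPKM in KO and 442 ± 58.4 FPKM in WT GFP-low HSCs (SD, n = 3 each), a difference smaller than the spread of the KO libraries.

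Of 24 further transcription factors and receptors of the lineage, 18 to 22 were tested per table and 0 were called. Kit, the receptor for stem cell factor and the most abundant of them in the GFP cohort, measured higher in all KO libraries than in all WT libraries of the 4 GFP populations. It averaged 154 ± 4.62 FPKM in KO and 111 ± 12.5 FPKM in WT GFP-high HSCs, and 152 ± 25.1 FPKM in KO and 108 ± 9.96 FPKM in WT GFP-low HSCs (SD, n = 3 each). The log2 differences were 0.48 and 0.47 there, 0.42 and 0.32 among GFP-high and GFP-low MPPs, and 0.12 in HSCs and -0.01 in MPPs of the first cohort. Kit was not alone in its separate groups. All KO libraries were above all WT libraries for 2 of 22 tested list genes in GFP-high HSCs (8.61% of all tested genes). In GFP-low HSCs this held for 7 of 20 (7.67%). Among MPPs it held for 3 of 20 with high GFP (6.74%) and 3 of 21 with low GFP (9.73%). All KO libraries were below for 0, 0, 1 and 2 list genes in the same order. Spi1, which encodes PU.1, had log2 differences of 0.13 in GFP-high HSCs and 0.29 in GFP-low HSCs. Myb averaged 73.7 ± 5.88 FPKM in KO and 63.5 ± 1.39 FPKM in WT HSCs of the first cohort (SD, n = 4 each), a log2 difference of 0.21.

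Markers of other cell types were called in 2 populations. The carboxypeptidase gene Cpa3, of the mast cell, basophil and eosinophil list (11 genes, 8 tested there), was called in MPPs. It averaged 16 ± 3.04 FPKM in KO and 5.39 ± 0.83 FPKM in WT libraries (SD, n = 4 each), a log2 difference of 1.40. Of 12 erythroid genes, Car2, Gata1, Epor and Aqp1 were called in GFP-low MPPs, with log2 differences of 0.83, 1.62, 1.32 and 1.46. The share of all tested genes called was 0.108% in MPPs and 0.32% in GFP-low MPPs. As the lists were chosen with earlier results of these data known, these calls are a description and not a test. Without WT replicate 2 of the MPPs, and without KO replicate 2 or WT replicate 3 of the GFP-low MPPs, 0 genes passed in those populations. The lists of mature neutrophil and macrophage genes (16 each), lymphoid (12 genes) and HSC genes (12 genes), and of the protease genes beside Ctsg, had 0 calls in any table. In that last list only Mcpt8, a mast cell and basophil protease, was tested, and it averaged 19.8 ± 8.01 FPKM in KO and 3.11 ± 2.07 FPKM in WT MPPs (SD, n = 4 each).

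Summed levels of several lists stood apart between the genotypes, with no overlap, both in populations where Prtn3 did and in those where it did not. In GFP-high HSCs these were the transcription factors and receptors, at 284 to 331 FPKM in KO and 212 to 274 FPKM in WT libraries, and the lymphoid genes, at 2.28 to 3.59 FPKM in KO and 5.86 to 14.2 FPKM in WT libraries. Erythroid and macrophage sums overlapped there, at 998 to 1226 FPKM in KO and 914 to 1305 FPKM in WT libraries for the 12 erythroid genes, and at 45.2 to 67.7 FPKM in KO and 38.8 to 65.1 FPKM in WT libraries for the 16 macrophage genes. Of the sums that stood apart in that population, the lymphoid sum alone was lower in KO libraries. Among the 12 lymphoid genes, 2 were tested there, 6 stayed below 1 FPKM in every library and 2 had no row. By mean log2(FPKM + 1) over the list, the transcription factors and receptors overlapped, at 2.31 to 2.61 in KO and 2.15 to 2.40 in WT libraries.

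In GFP-low HSCs the erythroid genes summed to 1365 to 2485 FPKM in KO libraries, against 851 to 878 FPKM in WT libraries. The transcription factors and receptors summed to 279 to 314 FPKM in KO libraries there, against 213 to 246 FPKM in WT libraries, and the 20 other granule genes to 1415 to 3605 FPKM in KO libraries, against 1354 to 1387 FPKM in WT libraries. All 3 sums were thus higher in KO GFP-low HSCs. By mean log2(FPKM + 1) over the list, the other granule genes overlapped, at 4.04 to 5.29 in KO and 4.19 to 4.34 in WT libraries. Of their 18 tested genes, 5 had all KO libraries above all WT libraries and 1 all below, against 7.67% and 6.42% of all tested genes. Their highest sum was in KO replicate 3, which also had the highest neutrophil sum. In GFP-high MPPs the erythroid genes summed to 1064.5 to 2014 FPKM in KO libraries, against 752 to 1018 FPKM in WT libraries, and the macrophage genes to 59.4 to 120 FPKM in KO libraries, against 42.7 to 47.2 FPKM in WT libraries. By mean log2 both lists overlapped there. The erythroid means were 3.65 to 5.55 in KO and 3.38 to 4.52 in WT libraries. The macrophage means were 1.39 to 1.86 in KO and 1.25 to 1.48 in WT libraries. In first-cohort HSCs the macrophage genes summed to 46.2 to 55.5 FPKM in KO and 28.1 to 35.6 FPKM in WT libraries, with Adgre1 at 0 in 1 of the 8 libraries. The mast cell, basophil and eosinophil genes summed to 20.2 to 110 FPKM in KO and 11.4 to 12.5 FPKM in WT libraries of the same table. Sums also stood apart where the Prtn3 groups overlapped. In first-cohort MPPs the lymphoid genes summed to 150 to 205 FPKM in KO and 80.9 to 118 FPKM in WT libraries. The HSC genes summed there to 247 to 302 and 339 to 397 FPKM. In GFP-low MPPs the erythroid genes summed to 1956 to 2389 FPKM in KO and 915 to 1427 FPKM in WT libraries. The HSC genes summed there to 276 to 384 and 412 to 452 FPKM. The protease genes beside Ctsg summed to 9.18 to 28.7 FPKM in KO and 1.31 to 8.30 FPKM in WT libraries of the first-cohort MPPs. Of these sums in MPPs and GFP-low MPPs, only the erythroid one also stood apart by mean log2. Elsewhere, mean log2 also stood apart for the macrophage and mast cell lists of first-cohort HSCs. It did so too for the lymphoid list of GFP-high HSCs, and the erythroid and transcription factor lists of GFP-low HSCs. How often sums stand apart by chance was not tested. The part of these cell types in the Prtn3 values was not tested.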

How the data were processed

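RNA was measured by SMART-Seq2 with Nextera XT libraries from sorted bone marrow cells, per the labels' protocols. The authors deposited 6 tables of FPKM values, scaled within each table. STAR, HOMER, DESeq2 and the mm10 build stand in the submitters' processing notes, without versions or roles. Whether reads were counted by strand is not given in the sources used here. Read numbers were recovered from the steps of the FPKM values: over 99.9% of genes came out whole in each library, within a tolerance of 0.01. The labels call the samples biological replicates, without saying which animals they came from, so the p-values measure the spread between these samples.

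KO and WT were compared within each table on log2(FPKM + 1), with a pseudocount of 1, by limma 3.58.1 in R 4.3.3 (trended variance, 2-sided, no covariates). A fold change on this scale understates the change of low genes. Genes at 1 FPKM or more in at least 4 (first cohort) or 3 (GFP cohort) libraries were tested, and p-values were adjusted by Benjamini-Hochberg over all of them at a threshold of 0.05. The fit was also run on simulated data with the same dispersion for every gene. That run cannot speak to genes that spread as widely as Elane. As the tables hold no counts, count tests were not used, except limma voom on the recovered reads as an alternative. The other alternatives were a pseudocount of 0.1, no filter, libraries rescaled to 1 total, a replicate block, and leaving out each library. Same-numbered KO and WT samples had correlations of -0.12 to 0.28 over genes, so numbers were not taken as pairs. Intervals cover 95%.

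Genes named are the 10 members, genes of the lists that passed the threshold, up to 2 genes of highest level per list, the tested chromosome neighbours, and the 5 genes most like Prtn3 or Elane. A few were named again in populations where they did not rank so. The members and lists were chosen with earlier results of these data known. Promoter sequences and gene positions are from RefSeq (GRCm38.p6) and exons from GENCODE M21.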

Additional observations from a re-analysis of the deposited data

Results flagged for a closer look

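Ctsg in replicate 3 of the KO HSCs (first cohort) stood apart from its group, at 38.2 FPKM beside 18.1 to 20.1 FPKM in the other KO libraries. Cebpa in replicate 3 of the WT HSCs stood apart at 2.31 FPKM, beside 0.955 to 1.19 FPKM in the other WT libraries. Of 40 such groups of 4 libraries examined, these 2 stood apart, and chance gives about 1 in 20.

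Csf3r was higher in all KO than in all WT libraries of the GFP-high HSCs and lower in all KO than in all WT libraries of the GFP-low MPPs. The log2 differences were 1.06 apart, and that difference was not tested.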

How the results depend on the processing

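Counts of genes past the threshold moved most in the first cohort. In HSCs 17 genes passed, against 2 with no filter, 6 with libraries rescaled to 1 total and 27 with limma voom. In MPPs 15 passed, against 7 with a pseudocount of 0.1, 0 with no filter and 114 with limma voom. In GFP-low MPPs 34 passed, against 2 with no filter. Leaving out 1 library gave 9 to 17 genes in HSCs, 0 to 212 in MPPs (212 without KO replicate 4, 71 without WT replicate 3, 0 without WT replicate 2), 0 to 1 in GFP-high HSCs, 0 to 7 in GFP-low HSCs (7 without KO replicate 1), 0 to 2 in GFP-high MPPs and 0 to 39 in GFP-low MPPs (0 without KO replicate 2 or WT replicate 3). The replicate block gave 10 genes in HSCs, 137 in MPPs and 52 in GFP-low MPPs, where numbers are not known to pair samples. The causes were not tested.

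Prtn3 in GFP-high HSCs stayed past the threshold with limma voom, a pseudocount of 0.1 and rescaling (log2 0.84), and did not pass with the replicate block, with no filter or with any 1 library left out. Of 502 recomputed member differences, 500 moved by less than the spread between replicates. The 2 that moved by more were Prtn3 in GFP-high HSCs on rescaling (0.76 to 0.84, beside a within-group SD of 0.07) and Csf1r in GFP-low MPPs (-1.26 with a pseudocount of 0.1). A difference cannot move by more than the spread between replicates when 1 library is left out, so the count of 500 does not show stability. The sign changed in 33 of the 502, over 19 of the 52 member differences. The difference in Prtn3 to Elane ratio in GFP-high HSCs ran from 1.90 to 2.72 with 1 library left out. Depth limits Csf1r and Cebpe most, with as little as 1 read.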
